A study of Mus musculus with 2 samples.

Results

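The Erythroblast cells described here were the cells to which the authors' annotation gave that name, 144 of 5678 annotated cells of mouse embryos dissociated at E11.5. All embryos were transgenic for EGFP, driven by CAG, a promoter active in most tissues, and linked to a DNA barcode, after insertion by the piggyBac transposon. Of the 4 cell suspensions, which were tagged with oligos and run as 1 droplet library, F0_8 and F0_9 were founder embryos and F1_1 was an F1 embryo, while F1_mix mixed cells of 2 F1 embryos into an artificial mosaic. No animal without the transgene was included, and each suspension stands for its own embryo or mixture. Values by suspension follow the order F0_8, F0_9, F1_1 and F1_mix. Erythroblast cells numbered 64 of 1599, 52 of 1318, 7 of 1310 and 21 of 1451 cells. Their shares were 4.0% (95% exact binomial interval 3.10 to 5.08), 3.95% (2.96 to 5.14), 0.534% (0.215 to 1.10) and 1.45% (0.898 to 2.20), with both founders above both F1 suspensions. These intervals cover the sampling of cells within a suspension and not the spread between embryos, of which there were 2 suspensions a group. Debris had been sorted away and cells strained before capture, and the part of those steps in the shares was not tested.

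Erythroblasts are the nucleated precursors of red cells. They take up iron through the transferrin receptor, build heme in a chain of enzymes that runs between mitochondrion and cytosol, and fill with globin while the membrane skeleton of the red cell is assembled. At midgestation the mouse holds both the primitive red cells of the yolk sac, which circulate and carry embryonic globins, and the definitive lineage of the fetal liver, which uses the adult-type globin genes. The transcription factors GATA1, which binds GATA motifs, and KLF1, which binds CACCC boxes, drive this programme in erythroid cells.

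The promoters of 5 leading Erythroblast genes are shown here because they hold the motifs of these factors. They encode an adult-type beta globin (Hbb-bs), an adult-type alpha globin (Hba-a1), KLF1 itself, the erythroid enzyme of the first step of heme synthesis (Alas2) and a red cell adhesion molecule (Icam4). Each sequence gives the 250 bases before the start of the gene in RefSeq (GRCm38.p6), read 5′ to 3′ on the strand of the gene. Their positions are chr7:103827929-103828178 (minus strand), chr11:32283422-32283671 (plus), chr8:84901732-84901981 (plus), chrX:150547167-150547416 (plus) and chr9:21029182-21029431 (plus), in that order. Capitals mark the letters GATAA with A or T before them and the letters CACCC, each on either strand, and matches of the 2 motifs may share end bases.
Hbb-bs: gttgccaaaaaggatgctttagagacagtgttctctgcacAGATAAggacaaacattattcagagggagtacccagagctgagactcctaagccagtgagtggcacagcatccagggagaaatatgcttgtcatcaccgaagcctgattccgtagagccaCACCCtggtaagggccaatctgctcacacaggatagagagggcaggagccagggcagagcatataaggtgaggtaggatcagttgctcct
Hba-a1: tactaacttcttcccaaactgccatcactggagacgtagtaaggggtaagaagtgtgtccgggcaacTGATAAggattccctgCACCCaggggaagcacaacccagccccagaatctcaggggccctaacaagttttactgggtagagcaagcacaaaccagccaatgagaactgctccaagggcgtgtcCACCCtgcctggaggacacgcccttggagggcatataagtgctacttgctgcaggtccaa
Klf1: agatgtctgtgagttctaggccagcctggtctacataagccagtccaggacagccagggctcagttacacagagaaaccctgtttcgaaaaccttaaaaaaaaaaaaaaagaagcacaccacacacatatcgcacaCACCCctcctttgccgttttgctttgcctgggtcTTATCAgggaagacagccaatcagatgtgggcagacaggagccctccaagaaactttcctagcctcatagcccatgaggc
Alas2: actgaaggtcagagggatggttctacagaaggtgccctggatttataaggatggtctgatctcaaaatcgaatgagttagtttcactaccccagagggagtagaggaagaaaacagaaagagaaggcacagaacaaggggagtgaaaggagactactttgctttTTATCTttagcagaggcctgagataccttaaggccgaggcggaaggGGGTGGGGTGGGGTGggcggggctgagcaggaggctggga
Icam4: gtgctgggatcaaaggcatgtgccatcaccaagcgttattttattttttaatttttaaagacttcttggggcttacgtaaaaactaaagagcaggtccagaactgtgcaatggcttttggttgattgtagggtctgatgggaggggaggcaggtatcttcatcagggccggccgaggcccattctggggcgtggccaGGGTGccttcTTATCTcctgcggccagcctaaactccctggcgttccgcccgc
Of the 25 leading genes, defined further on, 20 had a promoter in the RefSeq table. Of these, 15 (75%) held a GATA motif, against 4591 of 27025 promoters in all (17.0%). CACCC stood in 18 (90%), against 51.3% of all promoters. Both motifs stood in 13 (65%), against 7.16% of all. Of the 15 genes that were lowest in Erythroblast cells, 11 had a promoter, of which 0 held the GATA letters and 8 (72.7%) held CACCC. A match is a run of letters and not a measured binding site.

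The given markers set these cells apart. A level is the number of UMIs of a gene per 10000 gene UMIs summed over cells, its 95% interval is an exact Poisson interval that covers counting error only, and the 3′ chemistry counts transcript ends, so levels were not divided by length. Gata1 had a level of 1.46 (1.35 to 1.58), Klf1 of 3.30 (3.13 to 3.48) and Tfrc, the transferrin receptor, of 3.24 (3.07 to 3.41). By suspension Gata1 was at 1.40, 1.57, 1.45 and 1.39 per 10000 of all gene UMIs. Globin genes made up 12.3%, 15.6%, 0.83% and 2.08% of those UMIs, so similar levels do not show similar levels outside globin genes. Klf1 was 3.73, 3.23, 2.02 and 2.88 in the same order. Tfrc was 3.47, 3.73, 1.38 and 2.42, with both F1 suspensions below both founders. The highest levels among the 10 other deep types, the annotated types outside the red cells whose depth allowed a comparison, were 0.155 for Gata1, 0.0422 for Klf1 and 0.473 for Tfrc. A UMI of Gata1 was found in 93.1% of Erythroblast cells and in 0 of 532 cells annotated as CNS Neuron. By a limit of 3 counts this allows up to 0.564% of neurons with a UMI at this depth, and by the exact binomial interval up to 0.691%. For Klf1 the shares were 97.9% and 1.32%, and for Tfrc 97.9% and 25%, at a median of 29076 UMIs per Erythroblast cell and 10899 per neuron. After each cell was thinned to 5000 UMIs the Erythroblast shares were 56.3% for Gata1, 79.6% for Klf1 and 73.2% for Tfrc, and the neuron shares 0%, 0.583% and 13.0%. All 144 cells held 3 or more UMIs of 8 red cell genes, as did 9 of 4105 cells of the other deep types. The markers thus went with the label, and since clustering chose the cells by such genes, comparisons with other types are descriptions without a test.

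Erythroblast cells had the highest median depth of the 12 deep types, Erythrocyte cells included, with 1619 to 58816 UMIs per cell and a median of 4816 genes. The suspensions gave 1830443, 1441475, 281971 and 776581 gene UMIs, and no barcode was shared between suspensions. The most abundant 167 genes made up 50% of these UMIs, against 668 genes in the other deep types and 2 in the cells annotated as Erythrocyte. Transcripts of ribosomal proteins made up 24.2% of gene UMIs, against 16.5% in the other deep types and 8.96% in Erythrocyte cells.

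There were 7 cells that stood apart by their other genes. In F0_8, 2 cells of 1619 and 2095 UMIs held no UMI of Gata1 or Klf1, and 2 others held 47 and 23 UMIs of 5 mesenchyme markers. In F0_9, 1 cell held 64 UMIs of 5 neuron markers. In F1_1, 1 cell of 5877 UMIs held 876 UMIs of the embryonic globin Hbb-y and none of Gata1, Klf1 or Tfrc. Another F1_1 cell held 36 UMIs of megakaryocyte markers, 9 of them of the platelet factor Pf4, with 8 UMIs of Gata1, 1 of Klf1 and the lowest globin share of all Erythroblast cells. Without these cells 60, 51, 5 and 21 cells were left. Over all 144 cells the summed level of 6 megakaryocyte markers was 0.289, with 0.235, 0.146, 1.45 and 0.258 by suspension and Ppbp at 0 UMIs. Of 8 macrophage and myeloid markers, 5 were at 0 UMIs, among them Csf1r and C1qa, and the sum was 0.0139 (0 in F0_9 and F1_mix, 0.177 in F1_1). Endothelial markers summed to 0.0323 with Cdh5 and Cldn5 at 0, and hepatocyte markers to 0.0115 with Alb and Afp at 0. Neuron markers summed to 0.307, mesenchyme to 0.314, muscle to 0.0162 and epithelium to 0.0185, with neuron, muscle, epithelium and hepatocyte sums below each of the 10 other deep types. The megakaryocyte sum lay above 9 of the 10 other deep types, the endothelial sum above 4, the mesenchyme sum above 3 and the macrophage sum above 1. At these totals a gene at 0 UMIs allows a level of up to 0.00693.

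Across the transcriptome, 586 of 4929 genes with 100 or more Erythroblast UMIs (11.9%) were higher in Erythroblast cells than in each of the 10 other deep types in all 4 suspensions. The 25 leading genes, ranked by the ratio of the Erythroblast level to the highest other level after 0.05 was added to each, included Hbb-bt, Hbb-bs, Rhd and Hba-a2 among the first. They covered surface antigens of the red cell, heme synthesis, the membrane skeleton and globins, and 20 are members of the lists described here. The others were Mrap, an accessory protein of melanocortin receptors, the tight junction gene Cldn13, Nxpe2, Smim1, which underlies the Vel blood group, and 6030468B19Rik.

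**Figure D1:**
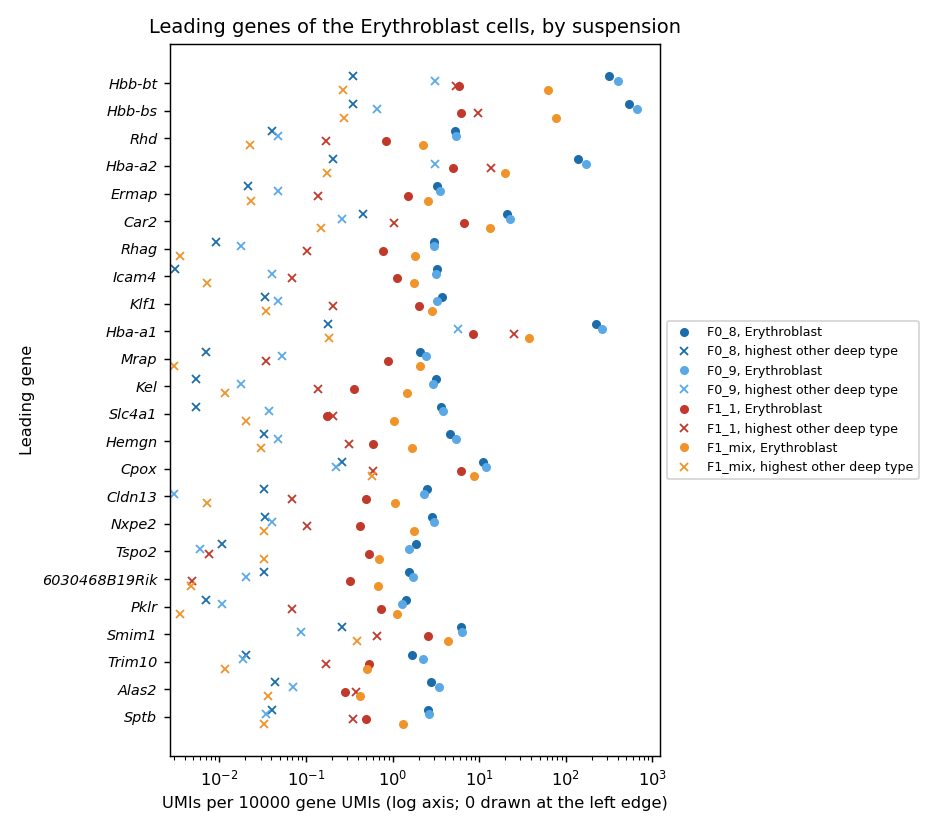
Levels of 24 of the leading genes (UMIs per 10000 gene UMIs, log axis) in Erythroblast cells (circles) and in the highest of the 10 other deep types (crosses), by suspension. Circles lie right of crosses except in F1_1 for Hbb-bs, Hba-a1, Hba-a2, Slc4a1 and Alas2, where the highest other type was above the Erythroblast level.

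Many surface antigens and membrane skeleton genes were higher in Erythroblast cells than in the other deep types, a comparison that leaves out the cells annotated as Erythrocyte here and in the lists that follow. Of 20 members with 100 or more UMIs, 12 were highest in Erythroblast cells in all 4 suspensions. The list summed to 46.9 in Erythroblast cells, with 52.7, 55.9, 16.2 and 27.6 by suspension, against 8.78 in the highest other type. Erythrocyte cells were at 29.3, and outside globin genes at 95.5 against 52.6 in Erythroblast cells. Rhd, a Rh family antigen, stood at 5.29, 5.34, 0.851 and 2.24. It was lower in both F1 suspensions than in both founders. Ank1 and Sptb, the ankyrin and beta spectrin of the membrane skeleton, had pooled levels of 3.39 and 2.24, against 0.145 and 0.0775 in the highest other type. Slc4a1, the anion exchanger band 3, was at 3.63, 3.82, 0.177 and 1.03, and in F1_1 it did not exceed the highest other type. Epb41, protein 4.1, was an exception at 2.36 against 6.11 in CNS Neuron, as was Add2, an adducin, at 1.12 against 1.72 in Neuroectoderm/Glia.

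The enzymes of heme synthesis were likewise high. Of 8 enzymes with 100 or more UMIs, 6 were highest in Erythroblast cells in all 4 suspensions, and the list summed to 39.9 against 2.75 in the highest other type. In Erythrocyte cells it summed to 29.7, and outside globin genes to 96.7 against 44.8 in Erythroblast cells. Cpox, coproporphyrinogen oxidase, was at 11.2, 12.1, 6.17 and 8.76. Fech, ferrochelatase, which inserts the iron, was at 4.03, 4.74, 0.780 and 2.06. Alas2 was at 2.80, 3.41, 0.284 and 0.425, the steepest spread of the list. Alas1, which serves other tissues, was at 0.0716, below each of the 10 other deep types (lowest 0.193). The iron list summed to 164 against 105 in the cells annotated as Hematoendothelial Progenitor/Endothelium, both pooled over suspensions. By suspension the Erythroblast sum was 165, 210, 73.0 and 110, and 7 of 12 members were highest in all 4 suspensions. Pooled Erythrocyte cells were higher than pooled Erythroblast cells, at 193 per 10000 gene UMIs, and at 629 against 184 outside globin genes. Slc25a37, mitoferrin, which brings iron into mitochondria, was at 5.27, 5.99, 0.851 and 1.53. Abcb10, its partner in the inner membrane, was at 2.66 against 0.194 in the highest other type. The ferritin chains Fth1 and Ftl1 had pooled levels of 88.0 and 61.6, against 45.9 and 54.6 in Hematoendothelial cells. By suspension Fth1 was at 89.5, 109, 38.6 and 63.0, and Ftl1 at 59.5, 84.0, 28.1 and 36.7. Ftl1 in both F1 suspensions and Fth1 in F1_1 thus lay below the pooled Hematoendothelial level. Hmox1, which breaks heme down, had a pooled level of 0.0115 against 2.01 in Hematoendothelial cells.

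Red cell enzymes followed, with 8 of 13 members highest in all 4 suspensions and a sum of 108 against 23.9 in the highest other type. Erythrocyte cells summed to 112, and outside globin genes to 363 against 121 in Erythroblast cells. Car2, carbonic anhydrase 2, stood at 20.9, 22.9, 6.63 and 13.5. Blvrb, biliverdin reductase B, stood at 21.1, 23.7, 5.75 and 10.98. Gpx1, a glutathione peroxidase, had a pooled level of 26.4 against 9.55. Bpgm, which makes the effector that lowers the oxygen affinity of hemoglobin, was at 0.349 in Erythroblast and 5.86 in Erythrocyte cells. Of 10 genes of nuclear loss and organelle clearance with 100 or more UMIs, 2 (Foxo3 and Trim10) were highest in all 4 suspensions. The 13 measured genes of the list summed to 10.5, within the range of 7.65 to 13.9 of the other types. Erythrocyte cells were at 12.2, and outside globin genes at 39.8 against 11.7 in Erythroblast cells.

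Among erythroid transcription factors, 8 of 20 members with 100 or more UMIs were highest in all 4 suspensions, namely Gata1, Klf1, Tal1, Zfpm1, Lmo2, Nfe2, Gfi1b and Zbtb7a. The list summed to 27.6 in Erythroblast and 8.68 in Erythrocyte cells, and outside globin genes to 31.0 and 28.2. Lmo2, a bridging subunit of the GATA1 and TAL1 complex, was at 3.94, 3.61, 4.08 and 3.48, and Zfpm1, the GATA1 cofactor FOG1, at 2.28, 1.94, 1.49 and 2.42. Bcl11a, a repressor of embryonic globin genes, was at 2.38, 1.66, 1.63 and 3.46, with Neuroectoderm/Glia higher at 3.22 when suspensions were pooled. Sox6, another such repressor, was at 3.03, 3.02, 0.248 and 1.13. Epor, the erythropoietin receptor, was at 1.37, 1.31, 0.567 and 1.22 against 0.113 in the highest other type, and was the only 1 of 4 signalling members with 100 or more UMIs that was highest in all 4 suspensions. Of the early blood progenitor genes, Kit was at 0.201 and Myb at 0.527, Cd34 was at 0 UMIs, and Runx1 was at 1.38 against 3.94 in Hematoendothelial cells.

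Cycling genes were abundant. The 20 genes of S phase summed to 37.1 in Erythroblast cells, above each other deep type (highest 29.4, Neuronal Progenitor), and 7 of 20 were highest in all 4 suspensions. By suspension the sum was 36.7, 36.7, 33.8 and 39.8. The 20 genes of G2/M phase summed to 41.8, below Mesodermal Progenitor at 56.6, with 0 of 20 highest in all 4 suspensions and sums of 47.4, 44.4, 24.8 and 29.7. The S phase sum thus differed little between suspensions, whereas the G2/M sum was lower in both F1 suspensions. Mki67, a proliferation marker, was at 7.30, 6.27, 2.09 and 4.29. Ccnd3, the cyclin D used by late erythroid cells, was at 4.05, while Cdkn1c, a cell cycle inhibitor, was at 0.252 against 3.93 in the lowest other type.

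At the other end, the 15 genes lowest against the broadly expressed set were Fscn1, Ptms, Marcks, Ptprg, Cdkn1c, App, Map4k4, EGFP, Vim, Map1b, Gnaq, Basp1, Marcksl1, Zfhx3 and Nfia. Vim, the intermediate filament vimentin, was at 0.240, 0.0763, 0.426 and 0.283 against 1.94 in the lowest other type. Marcks, an actin-binding membrane protein, was at 0.224 against 4.28. Of the broadly used genes, Tmsb4x, which binds actin monomers, was at 2.91 against 14.6 in the lowest other type, while the elongation factor gene Eef2 was at 10.3, above each other type in all 4 suspensions. From Y-linked genes in suspensions with few such cells, free RNA was estimated at 1.53% of Erythroblast UMIs, a value that rests on 5 UMIs.

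Globin genes made up 12.3%, 15.6%, 0.83% and 2.08% of the Erythroblast gene UMIs. Adult-type genes led in 3 of the 4 suspensions. Hbb-bs was at 543, 669, 6.21 and 76.3, and Hbb-bt, the other adult-type beta gene, at 312, 402, 5.92 and 63.2. Hba-a1 was at 224, 264, 8.55 and 38.1 and Hba-a2 at 137, 171, 5.0 and 20.05. Both founders were thus far above both F1 suspensions for all 4 genes. The Hba-a1 and Hba-a2 pair and the Hbb-bs and Hbb-bt pair are nearly identical, so the split of reads within each pair is uncertain.

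The embryonic beta-type genes Hbb-y and Hbb-bh1 gave 0.844%, 3.46%, 76.0% and 3.09% of the beta-type UMIs. F1_1 owed its value to a single cell, which held 876 of its 884 Hbb-y UMIs and 187 of its 197 Hbb-bh1 UMIs. Without the cells that stood apart the share in F1_1 was 4.67%, from 321 UMIs of 5 cells, and the shares of the other suspensions were 0.774%, 3.42% and 3.09%. The embryonic alpha-type gene Hba-x gave 0.514%, 4.53%, 58.3% and 9.15% of alpha-type UMIs, and 3.92% in F1_1 without those cells. Within F0_9, Hbb-bh1 at 37.8 lay far above Hbb-y at 0.569, and 1 cell held 1386 of its 5442 Hbb-bh1 UMIs. In 125 Erythroblast cells with 20 or more beta-type UMIs the median embryonic share was 0.267%, and 2 cells passed 50%. In the cells annotated as Erythrocyte the median was 93.4% and 56 of 60 passed 50%.

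**Figure D2:**
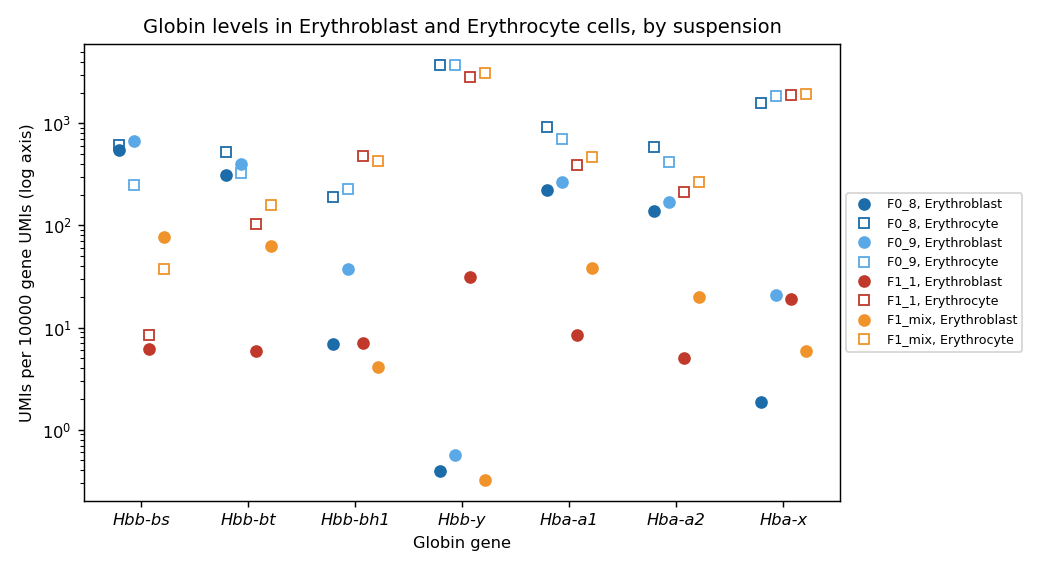
Levels of 7 globin genes (UMIs per 10000 gene UMIs, log axis) in Erythroblast (filled circles) and Erythrocyte cells (open squares), by suspension. Hbb-y separates the 2 types by the widest gap, with Erythrocyte cells between 2849 and 3739 and Erythroblast cells between 0.322 and 31.4.

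Single Erythroblast cells spanned globin shares from 0.0109% to 67.1% of their gene UMIs. The median cell was at 9.37%, 12%, 0.0524% and 0.463%. Of all cells, 80 held 5% or more, as did 2 of 4105 cells of the other deep types, whose highest value was 26.2% and whose median was 0.0114%. These 2 cells came from F0_9 and F1_1. The F1_1 cell was annotated as Hematoendothelial, and Hbb-y in the Hematoendothelial cells of F1_1 was at 218 with all cells and at 0.535 without the globin-rich cell.

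**Figure D3:**
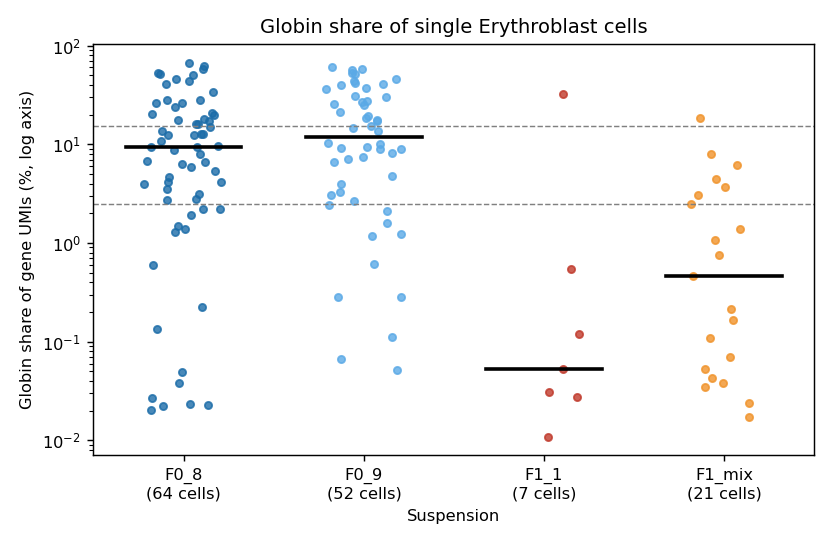
Globin share of gene UMIs (%, log axis) for each Erythroblast cell, by suspension, with the median as a black bar and dashed lines at the limits of 3 ranges of 48 cells. Founder medians of 9.37% and 12% lie above the F1 medians of 0.0524% and 0.463%.

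Cells were ordered by this share and divided into 3 ranges of 48 cells, 0.0109% to 2.46%, 2.68% to 15.3% and 16.0% to 67.1%. F0_8 gave 16, 25 and 23 cells to the lowest, middle and highest range, F0_9 gave 11, 18 and 23, F1_1 gave 6, 0 and 1, and F1_mix gave 15, 5 and 1. Cells of the highest range held fewer UMIs (medians of 36321, 29728 and 20821) and fewer genes (5783, 4860 and 3177). Values by globin range are levels outside globin genes, so that the globin UMIs themselves do not lower them. Of 4922 genes compared, 478 (9.71%) were more than 2-fold higher in the highest than in the lowest range and 1066 (21.7%) more than 2-fold lower, with a median log2 difference of -0.29. No test was made, since the ranges were set by the same cells.

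The heme and membrane genes were higher in the ranges of high globin. All 8 heme enzymes compared and 18 of 20 membrane genes were more than 2-fold higher in the highest range, with median log2 differences of 2.39 and 2.38 against -0.29 for all genes. Alas2 went from 0.111 in the lowest through 1.95 to 10.6 in the highest range, and Slc4a1 from 0.177 through 4.11 to 9.94. For Alas2 the lowest and highest ranges stood in the same order within each founder, at 0.192 and 10.4 in F0_8 and at 0.0272 and 11.1 in F0_9. Slc25a37 went from 0.715 to 15.7. Hbq1b, a theta-type globin gene that was not counted among the globin genes of the share, went from 0.0277 to 2.74. Among factors, Sox6 went from 0.682 through 3.98 to 5.96, Klf1 from 2.76 to 5.99, and Gata1 from 1.30 to 2.16. The other genes among the 10 with the largest ratio were Slc4a1, Gm867, Ube2l6, a ubiquitin-conjugating enzyme, Cdc25b, a phosphatase that activates cyclin-dependent kinases, Gm16867, Reln and Ypel3. Of 20 G2/M genes, 13 were more than 2-fold higher in the highest range and 0 lower, with the sum at 30.0, 47.0 and 88.6. Of 20 S phase genes, 1 was more than 2-fold higher and 1 lower, with the sum at 35.7, 45.6 and 48.9. In F0_8 the G2/M sum was 34.2 in the lowest and 88.4 in the highest range, and in F0_9 it was 30.8 and 92.3.

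Other genes had their lowest levels in the highest range. Myb, a transcription factor of blood progenitors, was at 1.20, 0.0824 and 0 from the lowest to the highest range, and Kit, the receptor of stem cell factor, at 0.460, 0.0300 and 0, where 0 UMIs allow a level of up to 0.0415. Cdk6, a G1 kinase, was at 1.88, 0.165 and 0.0138. Npm1, nucleophosmin of the nucleolus, was at 57.9, 28.4 and 6.65. Bcl11a was at 3.35, 2.38 and 0.954, opposite in direction to Sox6. Within F0_8, Myb was at 1.49 in the lowest range and 0 in the highest, and within F0_9 at 0.843 and 0. Besides Myb and Cdk6, the 10 genes with the smallest ratio included Tagln2, an actin-binding protein, Npm3, a nucleolar chaperone, Cyba, a subunit of the phagocyte oxidase, Srm, spermidine synthase, Apoe, Mcrip2 and Bzw2.

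**Figure D4:**
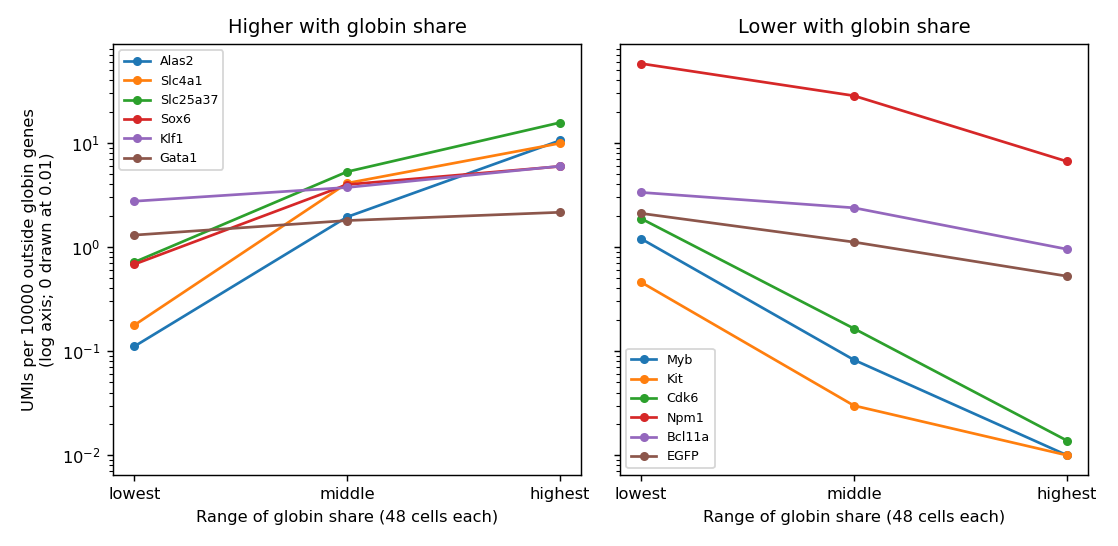
Levels outside globin genes (UMIs per 10000, log axis, 0 drawn at 0.01) in the 3 ranges of globin share for genes that were higher (left) and lower (right) in cells of high globin share. Alas2 spans 0.111 to 10.6, and Myb and Kit reach 0 in the highest range.

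Founder and F1 Erythroblast cells were then compared on UMIs summed per suspension, with levels again per 10000 of all gene UMIs, 2 against 2, by the quasi-likelihood test of edgeR with p-values adjusted after Benjamini and Hochberg. Log2 differences were fitted after the suspensions were scaled by trimmed means (TMM factors of 0.923, 0.853, 1.15 and 1.11). They therefore need not equal ratios of the printed levels. Most heme synthesis and membrane genes and 12 of 20 G2/M genes were higher in founders, and the genes lower in founders with the smallest adjusted p included the nucleolar genes Npm1, Ncl and Nolc1. Of 7473 genes tested, 458 (6.13%) passed an adjusted p of 0.05, 310 (4.15%) higher in founders and 148 (1.98%) lower. Generation, embryo and litter cannot be told apart here, and p-values measure only the spread between these suspensions. Founder cells lay mostly in the middle and highest ranges of globin share and F1 cells mostly in the lowest, as given above. Among the 48 cells of the lowest range, of which 27 came from founders, 6 of 5826 genes (0.103%) passed, a setting chosen after seeing the data. In that set 333 genes had an unadjusted p under 0.05, against 1747 in the full set. Without F0_9, 285 genes passed in place of 458. DESeq2 called 203 genes, and edgeR with no filter on low counts called 947.

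Of 9 heme synthesis genes tested, 8 were higher in founders and 0 lower, with a median log2 difference of 1.54 against -0.000449 for all genes. Alas2 differed by 3.35 on the log2 scale (SE 0.24, adjusted p = 0.00068), with levels of 2.80 and 3.41 in founders against 0.284 and 0.425. Urod, uroporphyrinogen decarboxylase, was at 4.38 and 4.72 against 1.88 and 2.03 (log2 1.54, SE 0.16, adjusted p = 0.00420). Alas1 did not pass (log2 -0.86, adjusted p = 0.420). Of 21 membrane genes 18 were higher, with Slc4a1 at a log2 difference of 2.64 (SE 0.36, adjusted p = 0.00851), and Aqp1, Add2 and Piezo1 did not pass. Tspo2, a cholesterol-binding membrane protein of erythroblasts, was at 1.88 and 1.56 against 0.532 and 0.695 (log2 1.74, SE 0.19, adjusted p = 0.00531). Of 13 iron genes 5 were higher, Slc25a37 by a log2 of 2.47 (SE 0.24, adjusted p = 0.00301), with Tfrc, Fth1, Ftl1 and Abcb10. Of 13 red cell enzymes and related genes 7 were higher, among them Car2, Hemgn and Blvrb. Of the globin genes, 2 of 3 alpha-type and 2 of 4 beta-type genes were higher, with Hbb-bs at a log2 difference of 4.2 (SE 0.87, adjusted p = 0.0282).

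Of 22 erythroid transcription factors 8 were higher in founders, namely Tal1, E2f2, Klf3, Sox6, Zbtb7a, Klf1, Mafg and Nfe2, and 0 were lower. Sox6 differed by 2.17 on the log2 scale (SE 0.34, adjusted p = 0.0107) and Klf1 by 0.79 (SE 0.18, adjusted p = 0.0384). Gata1 did not pass, at 0.40 (SE 0.17, adjusted p = 0.190), nor did Bcl11a at -0.11 (adjusted p = 0.855). Of 20 G2/M genes 12 were higher, and of 20 S phase genes 0 passed in either direction. Ube2c, which drives the exit from mitosis, was at 6.79 and 6.01 against 2.20 and 2.09 (log2 1.92, SE 0.14, adjusted p = 0.00068), and Nusap1, a spindle protein, at 1.68 and 1.88 against 0.284 and 0.567. Of 10 genes of nuclear loss and organelle clearance 5 were higher. Of 7 erythropoietin signalling genes, Bcl2l1 and the kinase gene Pim1 were higher and Stat5a was lower.

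The 12 genes of smallest adjusted p among those higher in founders also included Gm16867, the metallothionein gene Mt1, Cpeb4, an RNA-binding regulator of translation in late erythroid cells, and Trim10. Mt1 was at 30.1 and 35.5 in founders and 12.6 and 12.9 in the F1 suspensions. The 12 genes of smallest adjusted p among those lower in founders included Psmb10, Npm1, Tagln2, Slc25a4, Ncl, Ppif, Pgam1, Hspd1, Fam136a, Tomm5 and Nolc1. Npm1 was at 28.4 and 24.5 against 61.9 and 54.6 (log2 -0.80, SE 0.09, adjusted p = 0.00628). Ncl, nucleolin, was at 13.9 and 11.2 against 29.3 and 26.7, and Hspd1, the mitochondrial chaperonin HSP60, at 8.99 and 7.80 against 19.3 and 17.4. Slc25a4, the mitochondrial carrier of ADP and ATP, was at 1.15 and 1.05 against 4.68 and 3.06. Within the cells of the lowest globin range, Npm1 was at 49.8 and 57.8 against 62.9 and 62.5 (log2 -0.20, adjusted p = 0.866) and Tspo2 at 1.37 and 1.70 against 0.543 and 0.507 (log2 1.57, adjusted p = 0.0384). Of the 24 genes of smallest adjusted p, 21 were weaker in that range, such as Slc25a37 (log2 0.49, adjusted p = 0.911). Outside those 24, Cldn13 and Rhag had log2 differences of 1.76 and 1.38 in the full set. In the lowest range they were at 1.39 and 1.08 without passing (adjusted p = 0.121 and 0.152). The 6 genes that passed there were Ftl1, Fabp5 and Tspo2, higher in founders, and the globin genes Hbb-bs, Hbb-bt and Hbb-bh1, whose UMIs also set the range, so that nothing is read from them.

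The founder effect in Erythroblast cells differed from that in the 10 other deep types of the same suspensions for 678 of 13768 genes (4.92%), with 529 more positive in Erythroblast cells. Against the 76 Hematoendothelial cells, whose summed UMIs were 1420170 against 4330470 in Erythroblast cells, it differed for 30 of 7279 genes (0.412%). Both comparisons use the same Erythroblast sums. For Sox6 the difference against Hematoendothelial cells was 5.08 on the log2 scale (SE 0.55, adjusted p = 0.00100), for Slc25a37 it was 4.38 (SE 0.71, adjusted p = 0.0125) and for Fth1 1.73 (SE 0.20, adjusted p = 0.00100). EGFP did not pass, at -0.63 (adjusted p = 0.387). The Hematoendothelial sum of F1_1 included the globin-rich cell, and globin genes made up 4.24% of it. In F0_8, F0_9 and F1_mix the globin share of the Hematoendothelial sums was 0.0137%, 0.0116% and 0.0111%. How far that cell sets the differences of red cell genes was not tested.

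EGFP, which the authors had removed before clustering and which therefore did not choose the cells, was low in Erythroblast cells of each suspension. The levels were 0.994 (0.855 to 1.15), 0.950 (0.798 to 1.12), 4.43 (3.69 to 5.28) and 1.58 (1.32 to 1.89). In the 10 other deep types it was 13.0, 11.6, 26.0 and 11.504, and no value overlapped between the 2 groups of cells. The ratios amounted to 13.1-fold, 12.2-fold, 5.86-fold and 7.26-fold. The mean log2 difference was -3.18 (SD 0.57, n = 4), lower in 4 of 4 suspensions, and the two-sided exact permutation test gave p = 0.13, the smallest p that 4 suspensions allow. Outside globin genes the mean was -3.06. Actb, the endogenous beta-actin gene, was at 18.3, 18.1, 27.2 and 19.1 in Erythroblast cells and at 38.3, 39.9, 41.5 and 40.9 in the other deep types. Among 907 genes at 1 or more per 10000 in each of the 10 other types, EGFP had the 8th lowest ratio to the lowest other type, 0.104, where the median ratio was 1.24.

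Within Erythroblast cells, EGFP outside globin genes was 2.11 (1.90 to 2.33) in the lowest, 1.12 (0.944 to 1.31) in the middle and 0.525 (0.372 to 0.721) in the highest globin range. In F0_8 the values were 1.87, 0.776 and 0.627, and in F0_9 they were 1.03, 1.67 and 0.436. The highest range was lowest in both founders. Single cells weighed heavily, with 43 of 84 EGFP UMIs of the F0_9 middle range in 1 cell and 18 of 22 UMIs of the F0_8 highest range in another, 1 of the cells with mesenchyme markers. Without the cell of most EGFP UMIs in each range the levels were 1.43, 0.575 and 0.124 in F0_8 and 0.97, 0.884 and 0.346 in F0_9, a setting chosen after seeing the data. In F1_1, 2 cells with 53 and 48 UMIs held 80.8% of the 125 EGFP UMIs, and the latter is the cell with megakaryocyte markers. Without the cells that stood apart the levels were 0.846, 0.849, 3.22 and 1.58. After thinning to 5000 UMIs, 32.4% of Erythroblast cells held an EGFP UMI, against 97.5% in the other deep types and 13.3% of Erythrocyte cells. Free RNA accounted for an estimated EGFP level of 0.120 in Erythroblast cells. Between founders and the F1 suspensions EGFP did not pass (log2 -1.12, SE 0.37, adjusted p = 0.106).

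**Figure D5:**
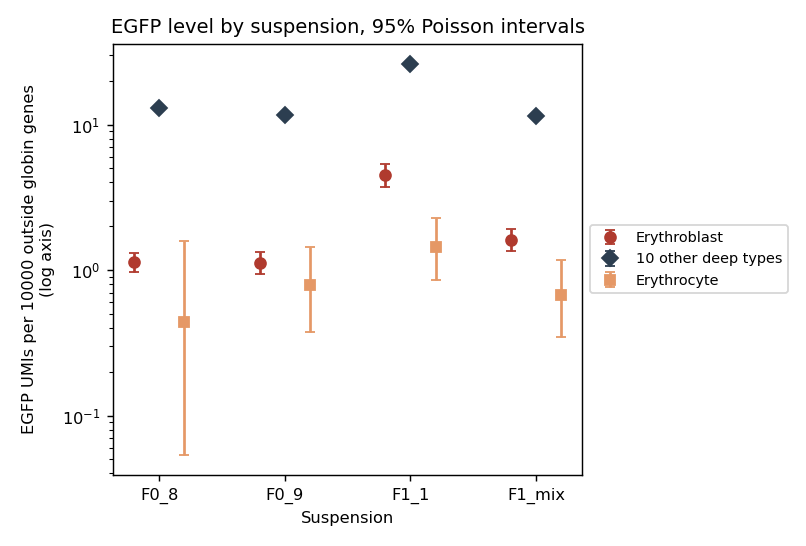
EGFP UMIs per 10000 UMIs outside globin genes (log axis) in Erythroblast cells, the 10 other deep types and Erythrocyte cells, by suspension, with exact Poisson 95% intervals. Erythroblast values lie between 1.13 and 4.47 and the other deep types between 11.506 and 26.0.

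Multiplexing oligos, which bind the cell membrane and are no transcripts, were also fewer. The median Erythroblast cell carried 12645, 13254, 22713 and 14530 oligo UMIs, against 18271, 19182, 27663 and 29128 in the other deep types. The value was lower in 4 of 4 suspensions, with a mean log2 difference of -0.59 (SD 0.30, n = 4, two-sided exact permutation p = 0.13, the smallest possible). Erythroblast cells held more gene UMIs than the other deep types at the same time, with medians of 29076 and 13900.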

How the data were processed

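Dissociated E11.5 embryos were tagged with oligos, sorted to remove debris and captured in 1 droplet library with 3′ v3.1 chemistry. The authors made the deposited UMI counts per gene and cell with Cell Ranger against GRCm38 with EGFP added. The file headers and the paper's list of software give version 7.2.0, while its text on the single-cell analysis names an earlier release. Their annotation followed correction for free RNA (SoupX), doublet scoring and removal (DoubletFinder) and noise reduction (RECODE), with EGFP removed before clustering in Seurat. The counts analysed here are the uncorrected ones. The doublet score is a fraction from the authors' cell table, used as a description with no further filter, and 18 other columns of that table were not used.

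Cell types came from the authors' annotation, and suspensions were assigned to generations from the submitters' design text. UMIs were summed per suspension and cell type. Founder and F1 sums were tested with edgeR 4.0.16 (R 4.3.3), with DESeq2 1.42.0 as an alternative, after a test on simulated data. Replicate spread is that of different embryos. Named genes were the 25 leading genes, the 15 lowest against the broadly expressed genes, the 10 highest and 10 lowest between globin ranges, the 12 of smallest adjusted p in each direction between founders and F1, and list members. The members and lists were chosen with earlier results of these data known. Alternatives were normalization, filters, globin genes left out, each suspension left out and Hematoendothelial cells as the comparison. The settings with the lowest globin range and without the cells that stood apart were chosen after seeing the data. Some genes that meet the rule for named genes are not reported here.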

Additional observations from a re-analysis of the deposited data

Results flagged for a closer look

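Of 26 values by suspension looked at, which were summed gene lists outside globin genes, EGFP values and the globin share, 5 had a suspension far from the other 3, where chance gives about 1 in 20. Outside globin genes, in F1_1 the megakaryocyte markers were at 1.47, the macrophage markers at 0.179, the endothelial markers at 0.179 and the muscle markers at 0.0715, and the same Erythroblast cell held 36, 5, 4 and 1 of these UMIs. In F0_9 the neuron markers were at 0.715, and 1 cell held 64 of those UMIs.

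The founder effect differed between Erythroblast cells and the other deep types for 678 genes. Against Hematoendothelial cells the log2 difference of the effects was 5.08 for Sox6, 1.73 for Fth1, 1.80 for Ftl1, 2.47 for Mt1 and 2.72 for Blvrb. It was 4.38 for Slc25a37, 4.97 for Ypel3, 1.91 for Prdx2, 1.504 for Gpx1, 3.15 for Gypc and 2.95 for Cpeb4. For Alas2 it was 9.98, where Hematoendothelial cells of F1_1, the globin-rich cell included, were at 0.380 against 0.0845 over all suspensions. That cell entered each of these differences, and neither its part nor that of the prior count was tested. Pf4 was at -4.74 and Pgam1 at -1.45. Hbb-y was at 2.79 against Hematoendothelial cells and at -3.44 against all other deep types, and its F1_1 counts rested on 1 cell in each type.

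Among barcodes with no cell type, 5 held 3 or more UMIs of the 8 red cell genes, and 3 of these held 5% or more globin.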

How the results depend on the processing

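Between founder and F1 Erythroblast cells, 458 genes passed as reported, 203 with DESeq2 and 947 with no filter on low counts, where more genes were tested. In the 48 cells of the lowest globin range, 6 passed. Leaving out 1 suspension at a time gave 285 to 608. The cause of these shifts was not tested, and the subset has fewer cells. Of 24 named genes, all 24 kept their direction and call under the other alternatives. In the lowest globin range Tspo2 kept its call, 21 did not pass, Alas2 could not be tested, and Pim1 turned to -0.013 on the log2 scale. With Hematoendothelial cells as the comparison, the founder effect differed for 30 genes in place of 678, with fewer genes tested. The EGFP and oligo differences stayed negative under each alternative run, between -3.42 and -3.01 for EGFP. No paired analysis was possible because founders and F1 suspensions share no replicate numbers in the labels. With 7 Erythroblast cells in F1_1 and 21 in F1_mix, single cells can set a value there, and genes of low level rest on few UMIs.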
